A study of Homo sapiens with 4 samples.

Results

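The vault RNA genes VTRNA1-1, VTRNA1-2, VTRNA1-3 and VTRNA2-1 were examined at their promoters by ATAC-seq. The assay uses Tn5, an enzyme that inserts sequencing adapters into DNA not covered by nucleosomes, so that the number of fragments over a promoter measures how accessible it is. The members are the 4 rows of a table of 28775 promoters whose NCBI Gene ID belongs to a gene with one of these symbols, and all 4 passed the filter on low counts. They were chosen partly on the difference between MORC2 knockout (KO) and wild-type (WT) libraries at VTRNA1-1, VTRNA1-2 and the promoters beside them, so the KO against WT values of the members and of that run of promoters are given as a description, with no p-value. MORC2 is a DNA-binding ATPase of the MORC family that takes part in gene silencing, and the KO was compared with WT to ask which promoters become more or less accessible without it.

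Both groups were HEK293T cells, an established human embryonic kidney line. There were 2 WT libraries and 2 MORC2 KO libraries. Each KO library came from its own bulk pool of edited cells, KO replicate 1 from sgRNA 1 and KO replicate 2 from sgRNA 2, so guide and replicate cannot be told apart, and a bulk pool can hold cells that escaped editing. The 4 libraries carry no other labelled treatment.

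Vault RNAs are short noncoding RNAs transcribed by RNA polymerase III. They were named for the vault, a large barrel-shaped ribonucleoprotein particle of the cytoplasm whose shell is built from copies of the major vault protein, but most vault RNA in a cell is not bound to vaults. Their promoters combine elements inside the gene, an A box and a B box that recruit TFIIIC, with elements upstream of the start. The VTRNA1 genes lie together on the long arm of chromosome 5 between a group of housekeeping genes and the protocadherin alpha cluster. VTRNA2-1, also called nc886, lies apart from them on the same arm, is not a vault component, binds the kinase PKR, and is known for an allele-specific DNA methylation that differs between people and between cell types.

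Total counts over all promoters ranged from 9435801 to 15152636 per library, with KO replicate 2 the deepest, and mitochondrial promoter rows took from 20.6% of the count in KO replicate 2 to 35.1% in WT replicate 2. The promoter of MORC2 itself held 403 and 639 fragments in the KO libraries and 247 and 267 in WT, higher in KO by 0.43 on the log2 scale (SE 0.087, adjusted p = 0.000279, edgeR quasi-likelihood test with Benjamini-Hochberg adjustment). Small edits within a gene leave its promoter in place, so this value does not check the knockout. Whether the MORC2 call holds under other scalings was not examined. Among marker genes of the HEK293 line, WT accessibility was 33.8 normalised counts (CPM, counts scaled to a common library size) at NEFL, 19.1 at LHX1, 12.3 at NEFM, 7.16 at PAX2 and 5.75 at EYA1, against 1.71 at PTPRC to 7.23 at KRT36 among genes of other cell types. The ranges overlap at their ends, since PAX2 and EYA1 were no higher than KRT36.

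In WT cells the VTRNA1 promoters were accessible and that of VTRNA2-1 was barely so. The mean WT level, in CPM scaled by the trimmed mean of M-values (TMM), was 37.2 ± 1.41 at VTRNA1-1, 28.7 ± 1.57 at VTRNA1-2, 24.0 ± 0.409 at VTRNA1-3 and 4.36 ± 1.03 at VTRNA2-1 (SD, n = 2 each). The median of all tested promoters was 16.7 CPM. VTRNA1-1 stood at the 72.9th percentile of tested promoters, VTRNA1-2 at the 63.4th, VTRNA1-3 at the 58.0th and VTRNA2-1 at the 26.3rd. The levels of tested promoters formed a low and a high peak, whose fullest bins ran from 3.55 to 3.98 CPM and from 35.5 to 39.8 CPM. VTRNA1-1 lay in the fullest high bin, and VTRNA1-2 and VTRNA1-3 lay between the median and that bin. VTRNA2-1 lay just above the fullest low bin. The limits of the peaks were not set. These levels assume that every window has the same length, as the study describes its promoters.

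**Figure D1:**
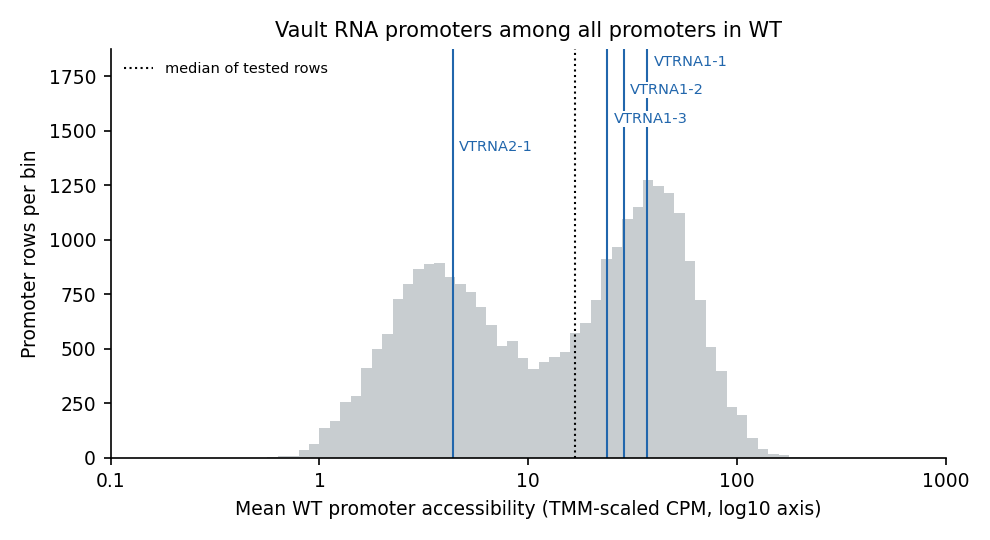
Number of promoter rows (vertical axis) by mean WT accessibility in TMM-scaled CPM (horizontal log10 axis), with the 4 vault RNA promoters as blue lines and the median of the tested rows, 16.7 CPM, as a dotted line. VTRNA1-1 lies in the fullest bin right of the median, and VTRNA1-2 and VTRNA1-3 lie between the median and that bin. VTRNA2-1, at 4.36 CPM, lies just above the fullest bin left of the median. Off the axis are 36 rows above 1000 CPM.

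The order of the levels was the same in all 4 libraries, VTRNA1-1 above VTRNA1-2 above VTRNA1-3 above VTRNA2-1. Within a library the counts of a pair of promoters give their ratio with an exact binomial interval, which covers counting error only. VTRNA1-1 held 1.28 times the fragments of VTRNA1-2 in WT replicate 1 (95% interval 1.10 to 1.50) and 1.31 times in WT replicate 2 (1.11 to 1.55). In the KO libraries this ratio was 1.34 (1.16 to 1.55) and 1.32 (1.18 to 1.48). All 4 intervals exclude 1, so VTRNA1-1 and VTRNA1-2 were separated beyond counting error in each library.

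VTRNA1-2 and VTRNA1-3 were closer to each other. Their ratio was 1.26 (1.05 to 1.50) in WT replicate 1, 1.14 (0.944 to 1.37) in WT replicate 2, 1.29 (1.10 to 1.53) in KO replicate 1 and 1.11 (0.983 to 1.26) in KO replicate 2. The intervals of WT replicate 2 and KO replicate 2 include 1, so at this depth these neighbours in the order were not separated in every library. The step from VTRNA1-3 down to VTRNA2-1 was far larger, from 4.76 times (3.45 to 6.69) in WT replicate 2 to 6.6 times (5.15 to 8.57) in KO replicate 2.

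VTRNA1-1 (NCBI Gene ID 56664) encodes the main vault RNA of the human particle, which is also known to bind the autophagy receptor p62. Its promoter held 368 fragments in WT replicate 1 and 327 in WT replicate 2, and 447 and 708 in KO replicates 1 and 2. Scaled for depth, these were 38.2 and 36.2 CPM in WT and 41.0 and 41.5 CPM in KO. The lower KO library was above the higher WT library, and the log2 fold change was 0.15 (SE 0.079), or 1.11-fold. In bulk ATAC-seq a larger share of cells with an open promoter and a promoter more open in each cell cannot be told apart. The SE expected from the number of fragments alone was 0.069 on the same scale, so most of the uncertainty was counting error.

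VTRNA1-2 (NCBI Gene ID 56663) encodes the middle member of the group. It had 287 and 249 fragments in the WT libraries and 334 and 537 in the KO libraries. These were 29.8 and 27.6 CPM in WT and 30.6 and 31.5 CPM in KO. The groups did not overlap, but the gap between the lowest KO and the highest WT library was small beside the spread within WT, and the log2 fold change was 0.12 (SE 0.089). The 95% Poisson intervals of these libraries overlap, from 26.5 to 33.5 CPM in WT replicate 1 and from 27.4 to 34.1 CPM in KO replicate 1.

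VTRNA1-3 (NCBI Gene ID 56662), the member nearest to the protocadherins, had 228 and 219 fragments in WT and 258 and 482 in KO. In CPM, WT was at 23.7 and 24.3, KO replicate 1 at 23.7 and KO replicate 2 at 28.3. KO replicate 2 was high and the other 3 libraries lay together, so the groups overlapped. The log2 fold change of 0.14 (SE 0.097) rested on KO replicate 2: without it the value was -0.012, and without KO replicate 1 it was 0.26. KO replicate 2 was also the deepest library and the one with the lowest mitochondrial share, and the part of these in the result was not tested.

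VTRNA2-1 (NCBI Gene ID 100126299) had 35 and 46 fragments in WT and 48 and 73 in KO. In CPM these were 3.63 and 5.09 in WT and 4.40 and 4.28 in KO, so both KO libraries lay between the WT libraries. The log2 fold change was -0.0046 with an SE of 0.22, which is wide because of the few fragments. The value moved to 0.25 without WT replicate 2 and to -0.23 without WT replicate 1, and a difference of that size was not detectable at this depth.

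**Figure D2:**
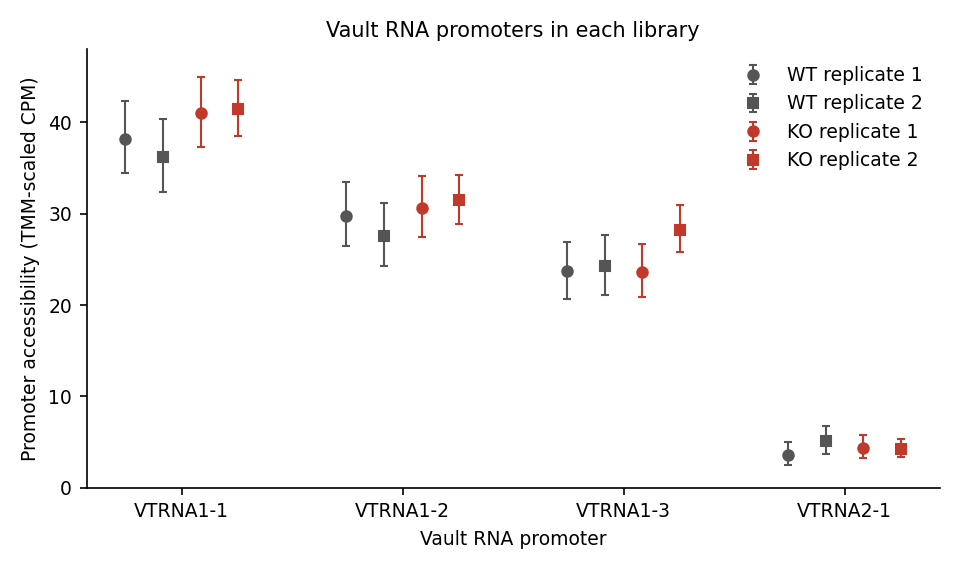
Promoter accessibility in TMM-scaled CPM (vertical axis) of each vault RNA promoter in each library; grey points are WT, red points KO, circles replicate 1, squares replicate 2, and bars 95% exact Poisson intervals that cover counting error only. KO lies above WT at VTRNA1-1 and VTRNA1-2, KO replicate 2 alone is high at VTRNA1-3, and at VTRNA2-1 the KO libraries lie between the WT libraries.

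The median log2 fold change of the 4 members was 0.13, beside -0.017 for all 27647 tested promoters. Of the members, 0 of 4 were called at an adjusted p under 0.05 in the edgeR fit, while 4.45% of all tested promoters were called, 3.45% higher and 0.995% lower in KO. Because the choice used this contrast, nothing is read from the count of 0. The study tested windows along the genome and summarised them to promoters. It reported far fewer differentially accessible genes than the promoters called in this fit. KO lay above WT without overlap at 2 of 4 members and at 25.2% of all tested promoters. Among all tested promoters the fold change of VTRNA1-1 was at the 83.7th percentile, that of VTRNA1-3 at the 81.6th, that of VTRNA1-2 at the 77.8th and that of VTRNA2-1 at the 52.5th. The members' values depended on the scaling. With libraries scaled by total count only, the median of all promoters moved from -0.017 to 0.12, and VTRNA1-1, VTRNA1-2, VTRNA1-3 and VTRNA2-1 moved to 0.28, 0.25, 0.27 and 0.14. With loess offsets, which remove any trend of the fold change with abundance, VTRNA1-1 was at 0.088, VTRNA1-2 at 0.065, VTRNA1-3 at 0.095 and VTRNA2-1 at 0.21, with a median of 0.091.

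The 10 promoters before VTRNA1-1 in gene order ran from TMCO6 to ZMAT2, and those after VTRNA1-3 were the first 10 protocadherin alpha promoters. The extent of the run on which the members were chosen is not given. The 2 sides differed in level. The promoters before had WT levels from 6.38 to 55.8 CPM, and 8 of 10 had a log2 fold change above 0, with a median of 0.12, beside 12914 of 27647 above 0 among all tested promoters. This median was 0.075 with loess offsets, 0.054 without WT replicate 2 and 0.18 without WT replicate 1. With total counts it was 0.26, where the median of all tested promoters was 0.12. Nothing is read from the sign, because the run used in the choice of members may include these promoters. The nearest, ZMAT2, which encodes a spliceosomal zinc finger protein, held 180 and 193 fragments in WT and 239 and 361 in KO, a log2 fold change of 0.10 (SE 0.11). The VTRNA1 promoters themselves, at 0.12 to 0.15, lay inside the range of this side, -0.18 to 0.21. Several rows on this side hold nearly the same fragments: HARS1 and HARS2, histidyl-tRNA synthetase genes that share a promoter in opposite directions, had 434 and 435 fragments in WT replicate 1, so the rows are not independent.

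The protocadherin alpha promoters drive the alternative first exons of a family of neuronal adhesion proteins. The 10 after VTRNA1-3 were nearly closed, from 1.56 to 3.53 CPM in WT. Of these, 2 of 10 had a log2 fold change above 0, and the median was -0.47. With loess offsets the median of these 10 was -0.21, with 4 of 10 above 0. PCDHA1, the nearest, held 40 and 22 fragments in WT and 28 and 37 in KO, a difference of -0.51 on the log2 scale (SE 0.27, adjusted p = 0.271, edgeR). After scaling, WT replicate 1 was high at 4.15 CPM and WT replicate 2, at 2.44 CPM, lay between the KO libraries at 2.57 and 2.17 CPM. Over all 15 protocadherin alpha rows WT levels reached 12.1 CPM, with a median of 2.78 CPM. Their median log2 fold change was -0.45, with 4 above 0 and 0 called by edgeR (3 at an unadjusted p under 0.05). Among all 27647 tested promoters edgeR called 4.45%, and 5626 had an unadjusted p under 0.05. DESeq2, whose independent filter left 21976 of the tested promoters without an adjusted p, called 0 of the 15 (0 unadjusted). The median of the 15 was -0.19 with loess offsets and -0.26 without KO replicate 1 or without WT replicate 1. The level fell from 24.0 CPM at VTRNA1-3 to 3.30 CPM at PCDHA1, the next row.

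Around VTRNA2-1 the promoters were mostly low as well. TGFBI, which encodes an extracellular matrix protein and precedes it in gene order, held 54 and 37 fragments in WT and 53 and 77 in KO, a difference of -0.066 on the log2 scale (SE 0.21, adjusted p = 0.891, edgeR). SMAD5-AS1, which follows it, was more accessible at 23.1 CPM in WT, and differed by -0.055 on the log2 scale (SE 0.10, adjusted p = 0.793). VTRNA2-1 thus lay at about the level of TGFBI, 4.36 against 4.85 CPM, a difference well within the SD of 1.03 at VTRNA2-1. Of its 20 neighbours 0 were called by edgeR, with 0 at an unadjusted p under 0.05. Over all tested promoters 4.45% were called, and 5626 of 27647 had an unadjusted p under 0.05. DESeq2 left 21976 of 27647 tested promoters without an adjusted p, so nothing is read from its 0 calls here (0 unadjusted). The median of the 20 was -0.14, and it turned to 0.038 with loess offsets, so no direction can be given for this group.

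**Figure D3:**
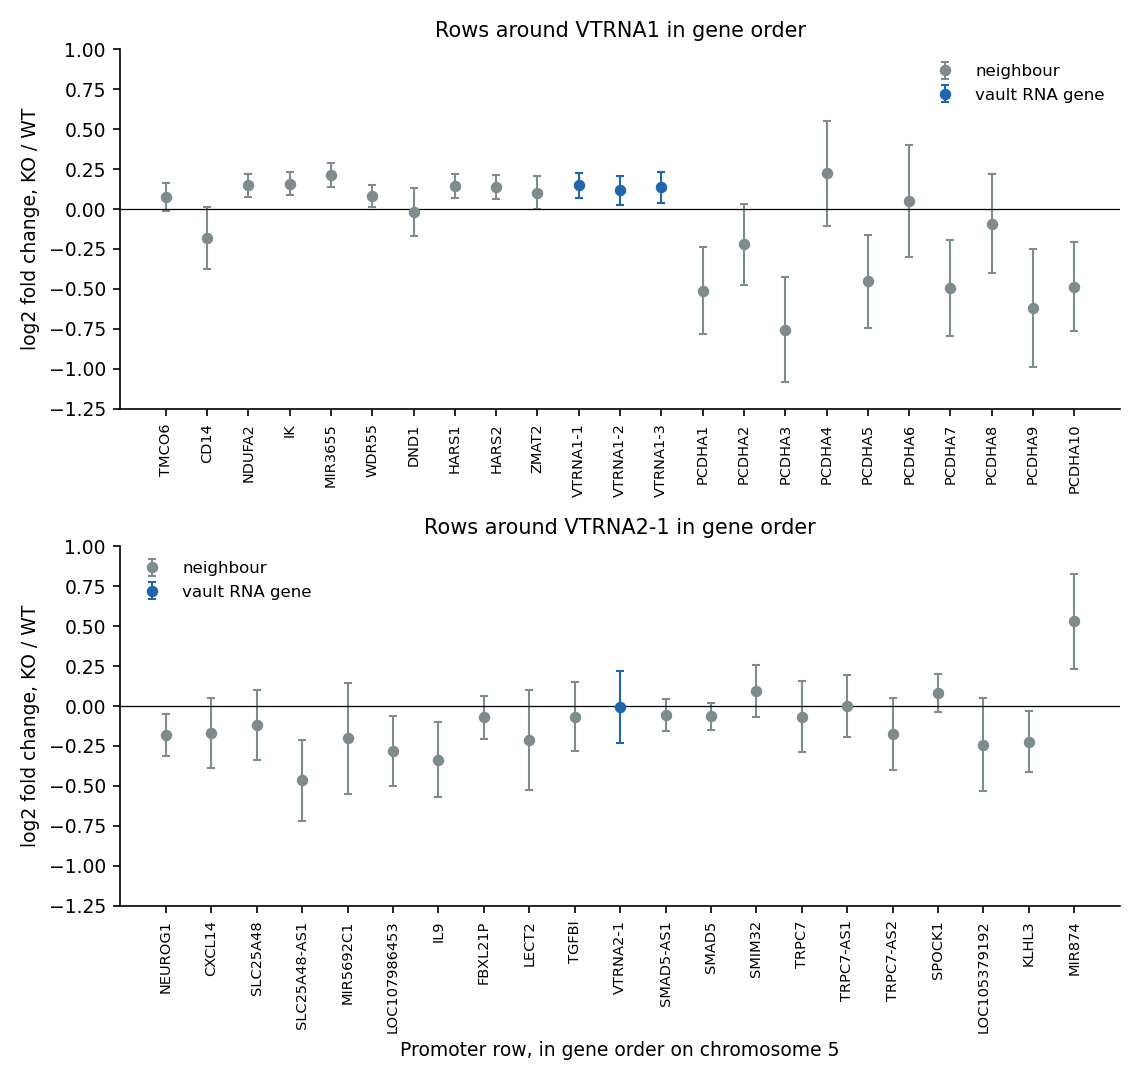
Log2 fold change of promoter accessibility, KO over WT (vertical axis, bars SE), for the promoters around VTRNA1 (top) and VTRNA2-1 (bottom) in the gene order of chromosome 5; vault RNA genes are blue and neighbours grey. The VTRNA1 promoters, at 0.12 to 0.15, sit inside the range of the rows before them, -0.18 to 0.21, and the sparsely covered protocadherin rows after them have wide bars and a median of -0.47.

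The proteins of the vault particle are MVP, the shell protein, PARP4, a poly(ADP-ribose) polymerase of the vault interior, and TEP1, which binds vault RNA and is shared with telomerase. PARP4 was called higher in KO. Its promoter held 168 and 192 fragments in WT and 270 and 435 in KO, which were 17.4 and 21.3 CPM against 24.8 and 25.5 CPM. KO and WT did not overlap, and KO was higher by 0.38 on the log2 scale (SE 0.10, adjusted p = 0.0125, edgeR). The call was lost with scaling by total count (log2 fold change 0.52, adjusted p = 0.352), with loess offsets (0.35, adjusted p = 0.0604), without KO replicate 2 (0.36, adjusted p = 0.25) and without WT replicate 1 (0.25, adjusted p = 0.230). DESeq2 gave PARP4 no adjusted p. TEP1 differed by 0.049 on the log2 scale (SE 0.081, adjusted p = 0.771) and MVP by -0.079 (SE 0.11, adjusted p = 0.727), and neither difference exceeded its SE.

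Of 8 proteins that bind or process vault RNAs, SRSF2 was called, and it was lower in KO. SRSF2 is a splicing factor whose binding to VTRNA1-1 depends on the cytosine methylation of that RNA. Its promoter held 553 and 614 fragments in WT and 577 and 879 in KO, which were 57.4 and 68 CPM in WT against 52.9 and 51.5 CPM in KO. The log2 fold change was -0.26 (SE 0.069, adjusted p = 0.0107, edgeR). The window is nearly the same as that of MFSD11, whose counts differed by at most 2.04% in each library, so the value belongs to both genes. The adjusted p was 0.714 with scaling by total count, where the log2 fold change was -0.13, 0.245 by DESeq2, 0.0639 without KO replicate 1, 0.283 without KO replicate 2 and 0.439 without WT replicate 2, where the log2 fold change was -0.14.

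The other partners did not pass the test. EIF2AK2, which encodes PKR, the kinase bound by VTRNA2-1, differed by 0.21 on the log2 scale (SE 0.082, adjusted p = 0.110), with 34.7 and 32.5 CPM in WT and 37.2 and 40.1 CPM in KO. SSB, which encodes the La protein that binds new RNA polymerase III transcripts, was at 0.13 (adjusted p = 0.334). SQSTM1, which encodes p62, was at 0.099 (adjusted p = 0.417), and its counts were within 2.26% of those of MGAT4B. DUSP11, a phosphatase that trims the triphosphate from vault RNAs, was at 0.074 (adjusted p = 0.689).

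DICER1, whose product cuts vault RNAs into small RNAs, was at 0.052 (adjusted p = 0.736), with counts within 0.417% of those of DICER1-AS1. NSUN2, the methyltransferase that places cytosine methylation on vault RNAs, was at -0.018 (adjusted p = 0.914), with counts within 1.02% of those of SRD5A1. OAS1, a sensor of double-stranded RNA that VTRNA2-1 is known to activate, had the lowest promoter, with 32 and 38 fragments in WT and 27 and 54 in KO. Its log2 fold change was -0.38 (SE 0.25, adjusted p = 0.398), an estimate whose SE was over 3 times that of SRSF2. Over the 11 particle and partner promoters, 1 was called higher and 1 lower, 7 lay above 0 and the median was 0.052. Among all tested promoters 3.45% were called higher and 0.995% lower, 12914 of 27647 lay above 0 and the median was -0.017. With loess offsets this median was -0.011, with 5 of 11 above 0, and without WT replicate 2 it was 0.017.

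The 28 promoters of the RNA polymerase III machinery were all tested: subunits of the polymerase, of TFIIIA, TFIIIB, TFIIIC and of the SNAPc complex, and the repressor MAF1. Of these, 2 were called higher and 1 lower in KO, and the median log2 fold change was 0.052 with 18 of 28 above 0. The shares over all tested promoters were 3.45% called higher and 0.995% called lower, with 12914 of 27647 above 0. GTF3C2, a TFIIIC subunit of the part that binds the B box, held 513 and 453 fragments in WT and 664 and 1058 in KO, higher in KO by 0.25 on the log2 scale (SE 0.070, adjusted p = 0.0176, edgeR). Its counts were identical to those of its antisense row GTF3C2-AS2, so the value cannot be given to one of them. SNAPC5, a small SNAPc subunit, held 416 and 395 fragments in WT and 569 and 882 in KO, higher by 0.26 (SE 0.073, adjusted p = 0.0213, edgeR). Its counts were within 13.5% of those of MIR4512, a row near it in gene order, so part of its fragments may be shared. SNAPC2, another SNAPc subunit, went the other way, with 39.2 and 41.4 CPM in WT and 33.4 and 33.7 CPM in KO, a log2 value of -0.26 (SE 0.081, adjusted p = 0.0353). SNAPc acts at RNA polymerase III genes with upstream promoters, such as U6 and 7SK.

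These 3 calls depended on the processing. With scaling by total count 0 of 28 were called (3 at an unadjusted p under 0.05), beside 20 of all tested promoters (2949 unadjusted). DESeq2 also called 0 of 28 (3 unadjusted), beside 6 of all tested promoters (1426 unadjusted). It gave SNAPC2 no adjusted p, so SNAPC2 could not be called. With loess offsets SNAPC2 was the single call and the median was -0.019, without KO replicate 1 the median was 0.090, and with a replicate block SNAPC2 lost its call (adjusted p = 0.0603). Without KO replicate 2, or without WT replicate 2, 0 were called. The large subunits of the polymerase gave small differences, with log2 fold changes of 0.14 at POLR3A (adjusted p = 0.382) and -0.017 at POLR3B (adjusted p = 0.936).

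The 16 other single RNA polymerase III genes included the closest counterparts of the vault RNA genes, short untranslated RNAs with their own promoters. None of them was called by edgeR, 0 of 16 with 3 at an unadjusted p under 0.05. Among all 27647 tested promoters 4.45% were called, and 5626 had an unadjusted p under 0.05. DESeq2 called 0 of the 16 with 1 unadjusted. It left 21976 of 27647 tested promoters without an adjusted p, so nothing is read from this 0. The median log2 fold change was 0.036, with 12 of 16 above 0. With loess offsets it was -0.0053 with 6 of 16 above 0, and without KO replicate 2 it was 0.073, so no direction can be given for this list. Their WT levels ran from 7.81 CPM at BCYRN1 to 77.1 CPM at RMRP, the RNA of RNase MRP, and the median was 30.8 CPM. VTRNA1-2, at 28.7 CPM, was near that median, and VTRNA2-1, at 4.36 CPM, was below every gene of the list.

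RNY1, a Y RNA gene whose product is bound by the Ro protein, had the largest positive difference of these genes, with 34.0 and 30.7 CPM in WT and 37.5 and 38.8 CPM in KO (log2 fold change 0.24, SE 0.083, adjusted p = 0.0663). RN7SK, whose RNA holds the elongation factor P-TEFb inactive, was at 0.18 (SE 0.067, adjusted p = 0.0918). RNU6-9, a U6 spliceosomal RNA gene, was at -0.36 (SE 0.13, adjusted p = 0.0727), with 15.7 and 16.5 CPM in WT and 12.5 and 12.6 CPM in KO. RNY1, RN7SK and RNU6-9 were singled out after their values were seen, and each missed the threshold. Of 17 rows for 5S rRNA genes, which use an internal promoter, 1 passed the filter, RNA5S15, with 7 and 8 fragments in WT and 11 and 15 in KO, few for a measure of the difference (log2 fold change 0.21, adjusted p = 0.834). Nuclear tRNA genes were not analysed here.

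**Figure D4:**
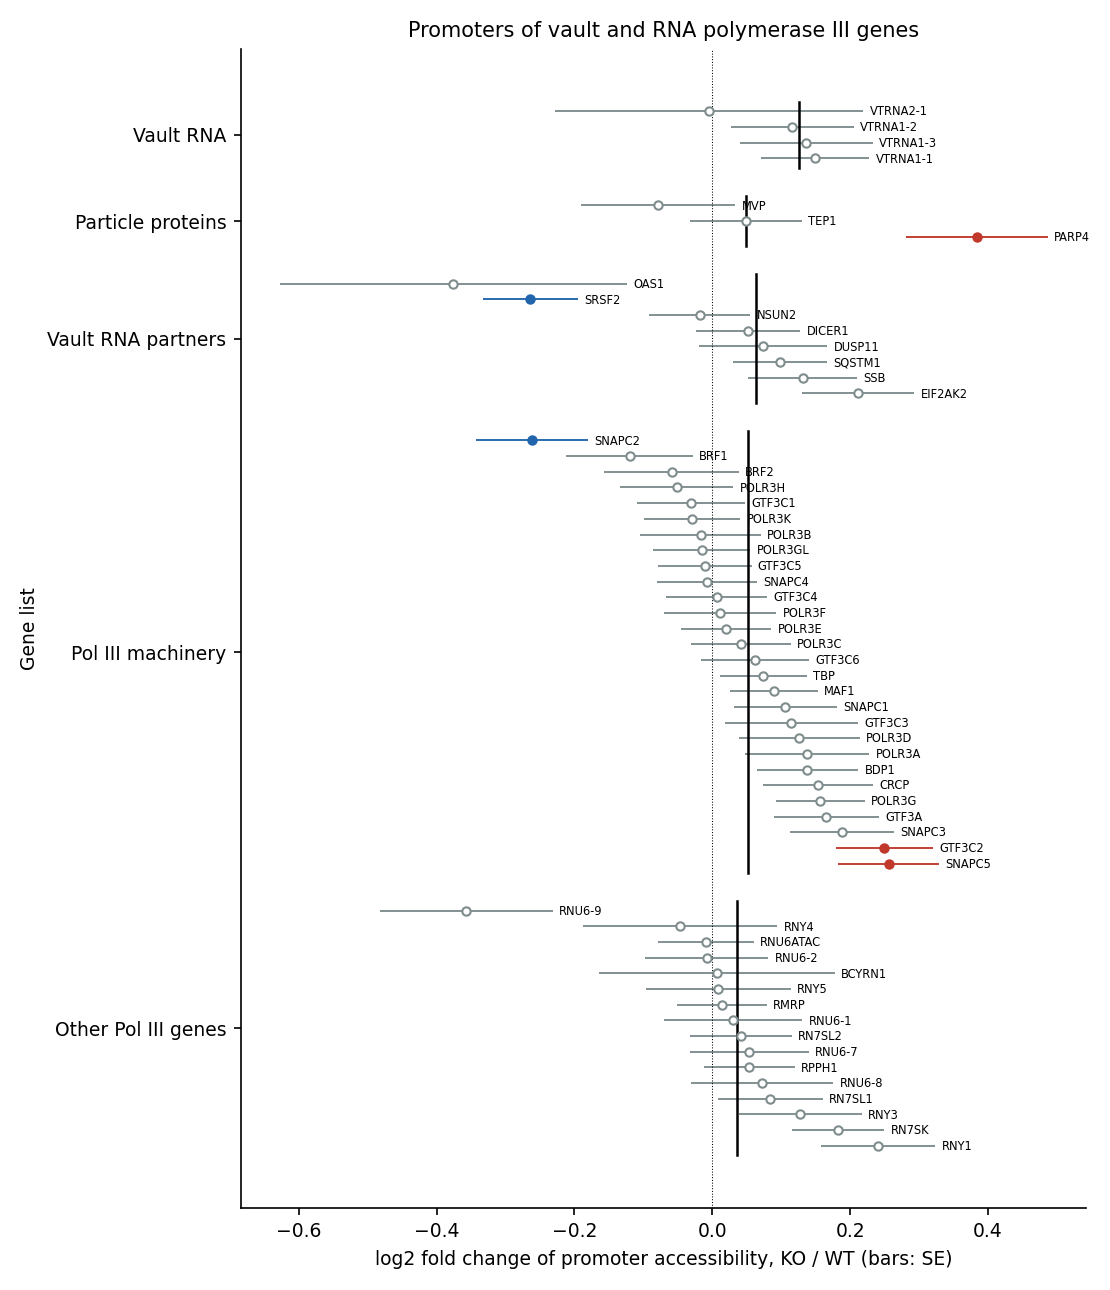
Log2 fold change of promoter accessibility, KO over WT (horizontal axis, bars SE), for the vault RNA genes and the lists set beside them; filled red points were called higher and filled blue points lower at an adjusted p under 0.05, and black vertical lines are list medians. PARP4, GTF3C2 and SNAPC5 are called higher and SRSF2 and SNAPC2 lower; the list medians lie between 0.036 and 0.13.

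The promoters whose pattern over the 4 libraries was most like that of each member came from many chromosomes. Likeness was the Euclidean distance between log2 CPM values centred on the mean of each row, among tested rows with a mean count at least 0.5 times that of the member. For VTRNA1-1 the nearest rows were H2AZ1, a variant histone gene, at a distance of 0.0050, ERBB3 at 0.0081 and SLC44A1 at 0.0082. For VTRNA1-2 they were VAX2 at 0.0054, MED19 at 0.0057 and ZNF107 at 0.0092. For VTRNA1-3 they were FIBIN at 0.0087, NET1 at 0.010 and KIF13A at 0.010, and for VTRNA2-1 they were MIR5700 at 0.013, GABRA3 at 0.020 and SNORD29 at 0.025.

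With 4 libraries such likeness is common for the more accessible members. Of 12969 rows compared with VTRNA1-1, 3026 lay within a distance of 0.1, and of 14283 compared with VTRNA1-2, 3110 did. VTRNA1-3, with its single high library, had 346 of 14932 rows within that distance. VTRNA2-1, whose WT libraries lay on either side of KO, had 85 of 24774.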

How the data were processed

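The deposited table holds raw fragment counts per promoter and library, made by the authors and not normalised. Per the study's methods, adapters were trimmed with Trim Galore, pairs were aligned with bowtie2 to CHM13, a telomere-to-telomere assembly, pairs of low mapping quality were dropped, which affects repeated genes such as 5S, and Picard removed duplicates. How this table was counted is not given in the sources used here; the submitters' processing notes name featureCounts of Subread 2.0.6, and the study describes promoters as windows of equal length. The WT peak list was not used, because its positions are on CHM13 and gene positions on that assembly were not used here.

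A RefSeq table on GRCh38.p14 gave symbols for 28763 of 28775 rows and the order of genes. It held no promoter sequence of a vault RNA gene, so none is shown. filterByExpr kept 27647 rows and removed 1128. All 4 libraries entered one fit in edgeR 4.0.16 (R 4.3.3), with TMM scaling, the legacy quasi-likelihood F-test and no covariate. The two-sided p-values were adjusted over all tested rows by Benjamini-Hochberg, with a threshold of 0.05, and SE values came from the F statistics. Permutation tests of single values were not run, because permuting 2 against 2 libraries gives no p below 0.333. The study describes independent replicates, but all are of 1 cell line, so p-values measure the spread between these libraries. Ratio intervals are exact binomial and count intervals exact Poisson, and neither covers more than counting error. The script was tested on simulated counts.

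The members and lists were chosen with earlier results of these data known. The genes named are the members, all particle and partner genes, called genes of the RNA polymerase III lists, the nearest neighbours, the 3 most similar rows of each member and the marker genes, of which 1 is not reported here. MORC2, HARS1, HARS2, POLR3A, POLR3B, RNY1, RN7SK, RNU6-9, RMRP, BCYRN1 and RNA5S15 were added after their values were seen. Alternatives were DESeq2 1.42.0 (size factors, Wald test), total count scaling, loess offsets, omission of mitochondrial rows, no filter, a replicate block, and leaving out each library.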

Additional observations from a re-analysis of the deposited data

How the results depend on the processing

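The log2 fold change of VTRNA1-1 was 0.28 with total count scaling and 0.088 with loess offsets, and total count scaling gave 0.25 at VTRNA1-2 and 0.27 at VTRNA1-3. Total count scaling also moved the median of all tested promoters, from -0.017 to 0.12. Leaving out each library in turn gave 0.11 to 0.19 at VTRNA1-1, 0.063 to 0.18 at VTRNA1-2, -0.012 to 0.26 at VTRNA1-3 and -0.23 to 0.25 at VTRNA2-1. The WT levels of VTRNA1-1 and VTRNA1-3 were 35.6 and 22.9 CPM with total count scaling. Over all promoters, edgeR called 1229 (954 higher), against 20 (19 higher) with total count scaling, 387 (215 higher) with loess offsets, 6 (6 higher) by DESeq2 and 41 to 1637 without single libraries, the fewest without KO replicate 2 and 230 without WT replicate 2. Of 11 particle and partner promoters, 2 were called, against 0 with total count scaling and 1 with loess offsets. DESeq2 called 0 of the 11, but it gave an adjusted p only to NSUN2, SRSF2 and SQSTM1, so PARP4 could not be called. Of 28 machinery promoters, 3 were called, against 0 with total count scaling, 1 with loess offsets, 0 by DESeq2 and 0 to 4 without single libraries. Other RNA polymerase III genes had 0 calls in the main fit, with total count scaling and with loess offsets. No calls are counted for the promoters before VTRNA1-1, which may belong to the run used in the choice of members. The cause of these changes was not tested. Signs turned at MVP (0.056) and NSUN2 (0.11) with total count scaling, at TEP1 (-0.011) and DICER1 (-0.012) with loess offsets, and at NSUN2 without KO replicate 1 (0.050) and without WT replicate 2 (0.0043), where omissions ranged from -0.083 to 0.050, none of them called in either fit. Of the other values of single named genes, 73 kept direction and side of the threshold and 12 lost the call outside the omissions of libraries, and with a library omitted 40 kept both and 14 lost the call.

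With a replicate block, 765 promoters were called (553 higher), and SNAPC2 lost its call. Same-numbered libraries did not deviate together over all tested rows (correlation -0.00027), so no shared replicate effect was seen. The correlation cannot tell whether these libraries were handled as pairs. VTRNA2-1 had 35 to 73 fragments per library, which limits its precision.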
